A study of Mus musculus with 12 samples.

Results

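The clustered histone genes are the many intron-poor copies that encode the linker histone H1 and the core histones H2A, H2B, H3 and H4. They were taken as the protein-coding genes whose GENCODE M21 symbols start with Hist1h, Hist2h, Hist3h or Hist4h. There were 67 of them among 37564 genes built from the deposited files: 6 H1, 18 H2A, 18 H2B, 12 H3 and 13 H4 genes. On the mouse genome build GRCm38, 54 lie on chromosome 13, 10 on chromosome 3, 2 on chromosome 11 and 1 on chromosome 6. The data are RNA sequencing counts per exon, summed per gene.

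The study examined RNA in 2 sorted mouse blood cell types with and without induction of MLL-ENL, a fusion protein found in leukaemia that joins part of MLL, a histone methyltransferase, to ENL. The 4 groups had 3 libraries each and were MLL-ENL HSC, WT HSC, MLL-ENL preGM and WT preGM. HSC (haematopoietic stem cells) were gated as Lin-Sca1+ckit+CD48-CD150+ and preGM (granulocyte and macrophage precursors) as Lin-Sca1-ckit+ cells that also lacked CD150 and CD105, CD41 and CD16/32. MLL-ENL cells carried the strain label Col1a1-MLL/ENL and WT cells the label C57bl/6 WT. All cells, WT included, spent 48 h in culture and received 1 µg/ml doxycycline. The medium was OptiMEM, to which 10% foetal calf serum, 5 ng/ml IL3, 5 ng/ml G-CSF and 10 to 50 ng/ml SCF were added. No MLL-ENL library lacked doxycycline, so an effect of the fusion and other differences between the strains cannot be told apart. Separate animals or cultures are not named for the replicates, so p-values reflect how far these libraries scatter, and that scatter may be technical.

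Most clustered histone genes are transcribed while DNA is copied, under the coactivator Npat, and their mRNA supplies the histones that package the new strands. Their transcripts usually end in a short stem-loop in place of a poly(A) tail. Slbp binds that stem-loop and carries the mRNA through processing, translation and decay. Some copies can also give polyadenylated RNA from a more distant end, in particular in differentiating cells. The core histones form the nucleosome, and H1 binds the DNA that enters and leaves it. Mouse H1 subtypes differ more in sequence than core histone copies do, and cells can change their mixture. RNA was made into libraries with a low-input kit (SMARTer universal) from material labelled total RNA. Whether poly(A) tails were selected or used for priming is stated nowhere in the sources used here, so how much of the stem-loop RNA was captured was not measured.

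The stem-loop is shown because it is what sets this RNA apart from other mRNA. A structure of 2 paired arms of 6 bases around a loop of 4 bases, starting GG, was looked for after each stop codon. Up to 120 bases of each GENCODE M21 transcript were searched. The search stopped at the annotated end where that came sooner, so transcripts with short annotated ends could not show a match. It was found in 46 of 67 genes, always with fully paired arms: 4 of 6 H1, 11 of 18 H2A, 10 of 18 H2B, 9 of 12 H3 and 12 of 13 H4 genes. The left arm read GGCTCT in every H1, H2A, H2B and H3 gene with a match. In H4 genes it read GGCCCT in 10 and GGTCCT in 2. Loops read tttc in 35 genes. The following genes, whose values are given below, show the 2 main arms, with the paired arms in capitals and 4 flanking bases on each side. The positions cover the arms and the loop, and the sequences come from GENCODE M21 on GRCm38.

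Hist1h1c, chr13:23739512-23739527, plus strand: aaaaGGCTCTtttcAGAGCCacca
Hist1h1e, chr13:23621782-23621797, minus strand: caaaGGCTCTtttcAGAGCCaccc
Hist3h2a, chr11:58955172-58955187, plus strand: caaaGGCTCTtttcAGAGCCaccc
Hist1h2bj, chr13:22043638-22043653, plus strand: caaaGGCTCTtttcAGAGCCacgc
Hist1h3e, chr13:23561903-23561918, minus strand: aaacGGCTCTtttaAGAGCCacct
Hist1h4d, chr13:23581950-23581965, plus strand: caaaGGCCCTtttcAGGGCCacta
Hist1h4i, chr13:22040966-22040981, minus strand: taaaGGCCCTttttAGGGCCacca

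No such structure was found in the annotated transcripts of Hist1h1a, Hist1h1b, Hist1h2bc and Hist2h2be. This says only that these letters are not in the annotated bases searched, which can be few. The genes may still have a stem-loop beyond them. Deposited exons ran past the stem-loop by 0 to 3050 bases, with a median of 49.0. They ended 25 bases past it in Hist1h4d and 27 bases past it in Hist1h1e, but 839 bases past it in Hist1h1c and 1487 bases past it in Hist3h2a.

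Promoters were available from RefSeq (GRCm38.p6) for 61 of the 67 genes. In windows from 250 bases before to 50 bases after the start, CCAAT stood on either strand in all 6 H1, 17 H2A, 16 H2B and 10 H3 promoters, and in 3 of 12 H4 promoters, against 37.9% of all 27025 promoters. AAACACA, the H1 box, stood in 5 of 6 H1 promoters, against 7.14% of all. ATTTGCA, the first letters of the octamer, stood in 7 of 17 H2A and 6 of 16 H2B promoters, against 3.98% of all. Windows of neighbouring H2A and H2B genes on opposite strands can overlap, as for Hist1h2aa and Hist1h2ba. The same motif can then count in both classes, so these promoters are not all separate. Those of Hist1h2bq and Hist1h2br hold the same sequence. TATAAA stood in 4 of 6 H1, 11 of 17 H2A, 8 of 16 H2B, 4 of 10 H3 and 8 of 12 H4 promoters, against 14.2% of all. The 250 bases before the start are printed for Hist1h1b and Hist1h1e, the H1 genes with the lowest and the highest H1 fold change in HSC, with the H1 box, the CCAAT motif and TATAAA in capitals. ATTGG in capitals is the CCAAT motif read on the other strand.

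Hist1h1b, chr13:21780626-21780875, minus strand: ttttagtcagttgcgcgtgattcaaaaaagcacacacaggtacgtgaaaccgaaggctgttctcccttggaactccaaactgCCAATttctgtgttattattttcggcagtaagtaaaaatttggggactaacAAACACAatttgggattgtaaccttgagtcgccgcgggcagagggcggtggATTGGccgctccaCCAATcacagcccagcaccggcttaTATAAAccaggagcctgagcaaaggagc
Hist1h1e, chr13:23622559-23622808, minus strand: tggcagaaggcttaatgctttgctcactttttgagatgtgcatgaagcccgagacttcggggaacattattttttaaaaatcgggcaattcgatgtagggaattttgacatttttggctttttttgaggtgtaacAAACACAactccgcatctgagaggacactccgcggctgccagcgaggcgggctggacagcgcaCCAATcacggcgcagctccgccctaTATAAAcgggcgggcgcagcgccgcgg

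Library totals lay between 18978563 and 23452390 gene counts in MLL-ENL HSC, 14529206 and 18156850 in WT HSC, 38460020 and 50318836 in MLL-ENL preGM, and 34735700 and 44486544 in WT preGM. WT preGM replicate 2 and MLL-ENL preGM replicate 1 stood apart from the other libraries of their groups. A chi-square of counts per degree of freedom was 400.2 to 504 for pairs that held one of them, against 15.7 to 30.1 for every other pair within a group. Calls that changed without one or both of them are named with the results. Marker genes of the cell types, most of them not antigens used in the gates, went with the sorted groups. The 6 HSC genes (Procr, Mecom, Hlf, Slamf1, Mllt3, Fgd5) summed to 428 to 465 CPM in MLL-ENL HSC and 275 to 324 CPM in WT HSC. They summed to 25.8 to 29.0 CPM in MLL-ENL preGM and 17.2 to 21.5 CPM in WT preGM. The 6 preGM genes (Mpo, Elane, Ctsg, Prtn3, Cebpa, Csf3r) summed to 10900.2 to 15368 CPM in MLL-ENL preGM and 23134 to 25286 CPM in WT preGM, against 236 to 271 CPM in MLL-ENL HSC and 289.5 to 413 CPM in WT HSC. CPM values are counts scaled to a common library size, here after TMM normalization.

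Few counts fell on histone genes, and most of those fell on few copies. The 67 genes together took 0.00948% to 0.0324% of the gene counts in a library. As the mean of the shares in the 12 libraries, Hist1h4d held 28.8% of histone counts, and the top 10 genes held 90.5%. The share of Hist1h1b was 5.88% in MLL-ENL HSC, where 6 copies held more, 32.2% in WT HSC, 28.7% in MLL-ENL preGM and 41.1% in WT preGM. On the RPKM scale, which divides by exon length, Hist1h4d had the highest mean over the 12 libraries (119 RPKM), followed by Hist1h1b (67.5), Hist1h2bc (17.4), Hist1h1e (13.1), Hist1h1a (12.4) and Hist1h4i (8.64). H2A and H3 copies had low values, with Hist3h2a at 3.22 RPKM and Hist1h3e at 1.5 RPKM as the highest of their classes. Hist1h1t, the testis linker histone, Hist2h2aa1 and Hist1h4m had no counts in any library.

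**Figure D1:**
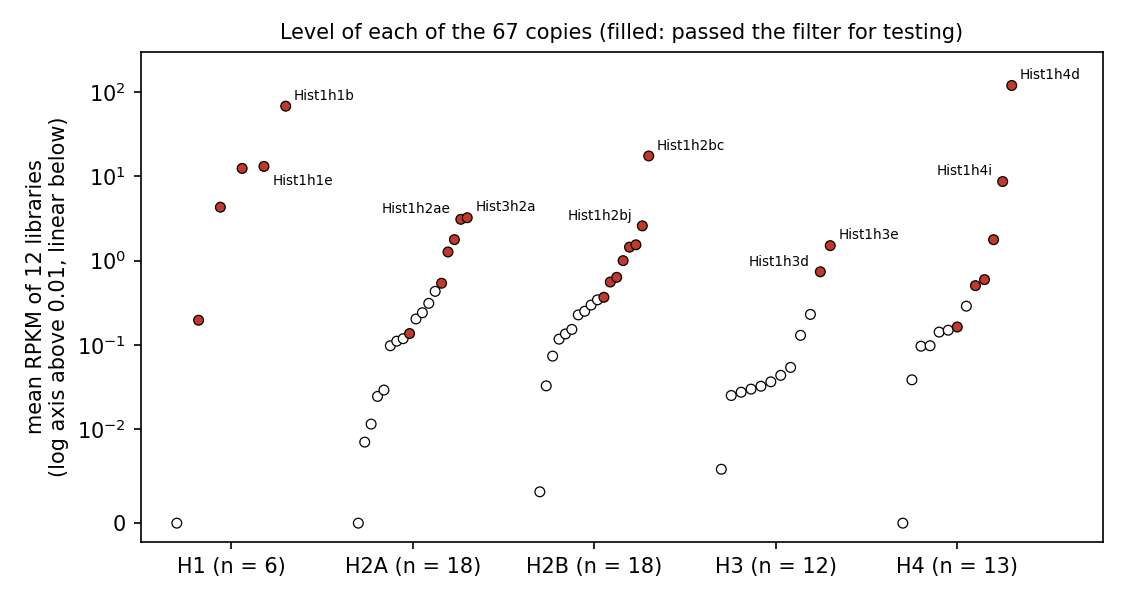
Mean RPKM over the 12 libraries (vertical axis, logarithmic above 0.01 and linear below) of each of the 67 clustered histone genes, by class; filled points passed the filter for testing. One copy stands far above the rest in H1 (Hist1h1b, 67.5 RPKM), H2B (Hist1h2bc, 17.4 RPKM) and H4 (Hist1h4d, 119 RPKM).

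After removal of genes with low counts, 27 members were tested: 5 H1, 6 H2A, 8 H2B, 2 H3 and 6 H4 genes. The 40 others never exceeded 35 counts in a library and together summed to 1.40 to 5.63 CPM. The copies are hard to tell apart by reads. Between pairs of copies, the median identity of coding sequences was 72.5% in H1, 91.5% in H2A, 96.6% in H2B, 97.2% in H3 and 93.9% in H4. The median share of coding 50-base windows found in no other annotated locus was 89.0% in H1, 15.8% in H2A, 20.4% in H2B, 14.6% in H3 and 28.8% in H4. No source used here gives the read length, and 50 bases were assumed. Values of single H2A, H2B, H3 and H4 copies are therefore uncertain, and classes were also tested as sums. How reads that fit several copies were counted was not examined. If such reads were left out, class sums lack them too. Levels of different copies and classes are then not safely comparable. Among the copies described here, unique windows made up 100% of the coding sequence of Hist1h1a, Hist1h1b and Hist2h2be and 87.7% of that of Hist3h2a. They made up 57.3% for Hist1h4d, 28.8% for Hist1h4i and 2.43% for Hist1h2bc. Other parts of the transcripts were not examined. They include exon 2 of Hist1h2bc, which held 72.5% to 84.1% of its exon counts.

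Sums of the H1, H2B, H3 and H4 classes had negative fold changes with MLL-ENL in both cell types, not all of which passed the test. In the fit over all 12 libraries, more classes passed the test in preGM than in HSC. In preGM, H1, H2B and H4 sums fell with MLL-ENL, to 0.270, 0.450 and 0.412 times the WT level. No class sum passed the test in HSC in that fit. Without the 2 libraries that stood apart, H1 and H2B passed in HSC (adjusted p = 0.0018 and 0.0069). H4 then no longer passed in preGM (adjusted p = 0.12), so the contrast in calls between the cell types rests on those libraries. Some sums also leaned on a single copy. In HSC the log2 fold change of H1 was 0.44 without Hist1h1b, and that of H2B 0.23 without Hist1h2bc. H3 and H4 stayed negative there without their most abundant copies. In preGM H2B no longer passed without Hist1h2bc (-0.66), while H1 (-1.51) and H4 (-1.53) still passed without their most abundant copies. The test was edgeR's quasi-likelihood test, and values passed at a Benjamini-Hochberg adjusted p under 0.05. Fewer producing cells and less RNA per cell cannot be told apart in such bulk samples.

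H1 genes summed to 33.5, 49.1 and 74.1 CPM in MLL-ENL preGM, against 153, 316 and 111 CPM in WT preGM. The groups did not overlap, and WT preGM replicate 2 was far above all others. The change passed the test over 15680 rows, the genes with the members replaced by class sums (log2 fold change -1.89 ± 0.37 SE, adjusted p = 0.0049), and in all 22 alternatives (adjusted p 2.0e-05 to 0.049). Without the 2 libraries that stood apart it was -1.10 (adjusted p = 0.012) on the log2 scale.

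H4 genes summed to 29.7, 52.8 and 57.5 CPM in MLL-ENL preGM, against 93.8, 156 and 90.2 CPM in WT preGM, again without overlap (log2 fold change -1.28 ± 0.33 SE, adjusted p = 0.026). This call ended without WT preGM replicate 2, at -0.98 (adjusted p = 0.11), and without MLL-ENL preGM replicate 1, at -1.04 (adjusted p = 0.090); the range over 22 alternatives was 0.0029 to 0.12. H2B genes summed to 8.24, 11 and 11.6 CPM in MLL-ENL preGM, against 19.9, 28.7 and 19.8 CPM in WT preGM (log2 fold change -1.15 ± 0.23 SE, adjusted p = 0.0053). All MLL-ENL preGM libraries lay below all WT preGM libraries. Without Hist1h2bc, its most abundant copy, the H2B change no longer passed (-0.66 ± 0.26 SE, adjusted p = 0.15).

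H3 genes, the lowest class, summed to 2.20, 2.47 and 2.46 CPM in MLL-ENL preGM, against 3.79, 8.75 and 5.21 CPM in WT preGM. The groups did not overlap, but the change did not pass the test (log2 fold change -1.31 ± 0.43 SE, adjusted p = 0.082). H2A genes summed to 16.2, 8.52 and 6.87 CPM in MLL-ENL preGM, against 13.4, 16 and 12.9 CPM in WT preGM, with MLL-ENL preGM replicate 1 just above every WT library and the 2 others below them (log2 fold change -0.42 ± 0.30 SE, adjusted p = 0.42).

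In HSC, H1 genes summed to 29.5, 35.8 and 44.6 CPM with MLL-ENL, against 83.1, 62.0 and 88.8 CPM in WT. Every MLL-ENL HSC library lay below every WT HSC library, yet the change did not pass the test in the fit over all 4 groups (log2 fold change -1.09 ± 0.37 SE, adjusted p = 0.11). It passed in 4 of 22 alternatives, among them the fit of the 2 HSC groups alone, at -1.07 (adjusted p = 0.0014), and the fit without both libraries that stood apart, at -1.09 (adjusted p = 0.0018); the range was 0.0014 to 0.50. H2B genes summed to 18.7, 21.6 and 20.1 CPM with MLL-ENL, against 28.9, 29.7 and 32.9 CPM in WT HSC, without overlap (log2 fold change -0.60 ± 0.23 SE, adjusted p = 0.16). It passed in the fit of the HSC groups alone, at -0.58 (adjusted p = 0.028), and without both libraries that stood apart, at -0.60 (adjusted p = 0.0069); the range was 0.0069 to 0.68.

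H4 genes summed to 21.5, 39.1 and 46.4 CPM in MLL-ENL HSC, against 52.2, 42.4 and 56.5 CPM in WT HSC, and the groups overlapped (log2 fold change -0.50 ± 0.32 SE, adjusted p = 0.44). H3 genes summed to 1.55, 1.15 and 0.601 CPM in MLL-ENL HSC, against 2.68, 1.54 and 3.26 CPM in WT HSC, with overlap at 1 library (log2 fold change -1.17 ± 0.45 SE, adjusted p = 0.17). H2A genes summed to 13.9, 9.47 and 12.3 CPM in MLL-ENL HSC, against 11.6, 8.61 and 12.1 CPM in WT HSC, the only class with a positive fold change (log2 fold change 0.15 ± 0.31 SE, adjusted p = 0.84), which was negative in limma on log2 RPKM, at -0.17 and -0.15. The difference between the preGM and the HSC response passed the test for no class sum, with log2 values from -0.80 for H1 to -0.15 for H3 and adjusted p from 0.43 to 0.95; H2A and H3 values changed sign under other settings.

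**Figure D2:**
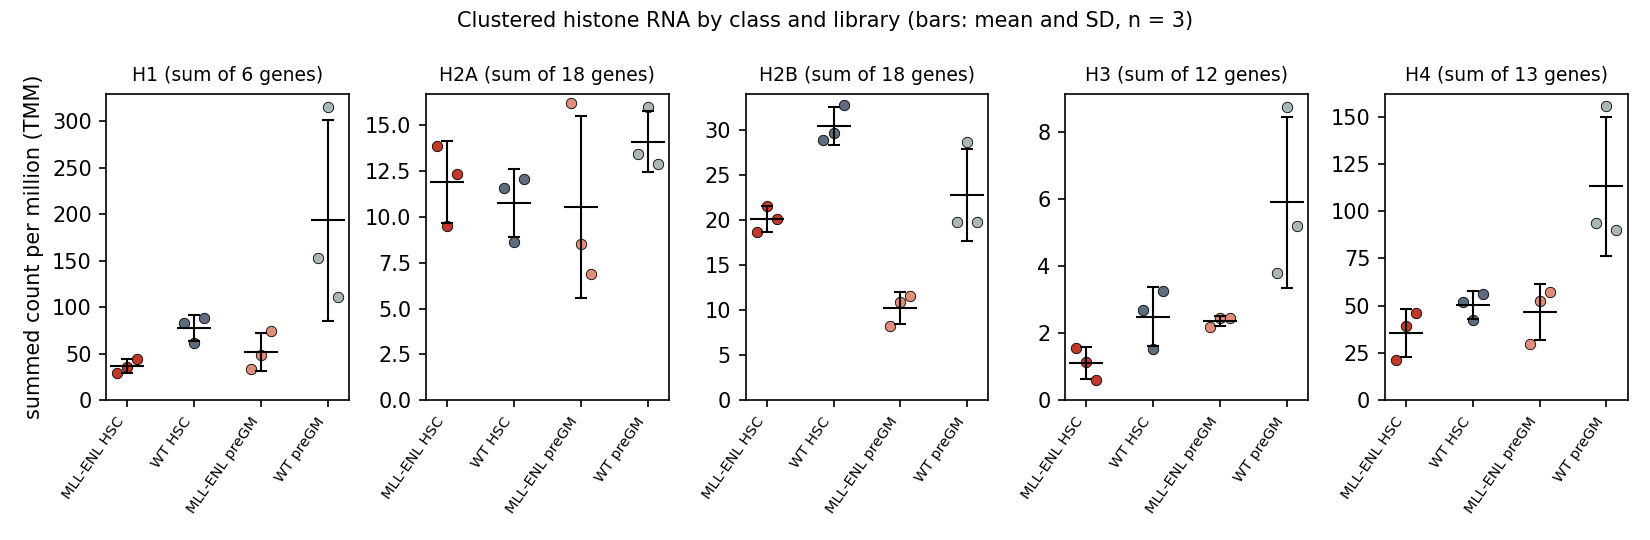
Summed CPM (TMM-normalized counts scaled by library size, vertical axes from 0, scale differs by panel) of each histone class in the 12 libraries; points are libraries, bars the mean and SD of 3. In H1 the MLL-ENL preGM libraries sit at 33.5, 49.1 and 74.1, below the WT preGM libraries at 153, 316 and 111.

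Single copies were then compared. In HSC, 3 of the 27 tested members were lower with MLL-ENL and 0 were higher, where 4.14% of all 15702 genes tested were called, 0.949% lower and 3.19% higher. Of the members, 22 had a negative and 5 a positive log2 fold change, with a median of -0.39 against 0.02 over all genes. At an unadjusted p under 0.05, 8 members were lower and 2 higher. DESeq2 called 4 lower and 0 higher, and limma on log2 RPKM 5 lower and 0 higher. In preGM, 6 of 27 were lower and 0 higher, where 6.79% of all genes were called, 3.08% lower and 3.71% higher. Here 23 members had a negative fold change, and the median was -1.07 against 0.08 over all genes. At an unadjusted p under 0.05, 10 were lower and 0 higher, DESeq2 called 10 lower and 0 higher, and limma 5 lower and 0 higher. Shares of all genes at an unadjusted p, in DESeq2 and in limma are not given here. In both cell types those counts therefore have no background to be read against. Leaving out 1 library reduced the HSC calls to 2 (WT HSC replicate 3) or to 1 (replicate 1 or 2 of WT HSC, any MLL-ENL HSC library, or WT preGM replicate 1). Leaving out WT preGM replicate 2 reduced the preGM calls to 2, and leaving out MLL-ENL preGM replicate 1 reduced them to 3. Without both, 1 of 25 tested members was higher and 4 lower in HSC, and 0 were higher and 2 lower in preGM. In that HSC fit far more of all genes were called lower too, a share given with the S phase genes below. These counts are therefore not to be set against the shares above.

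**Figure D3:**
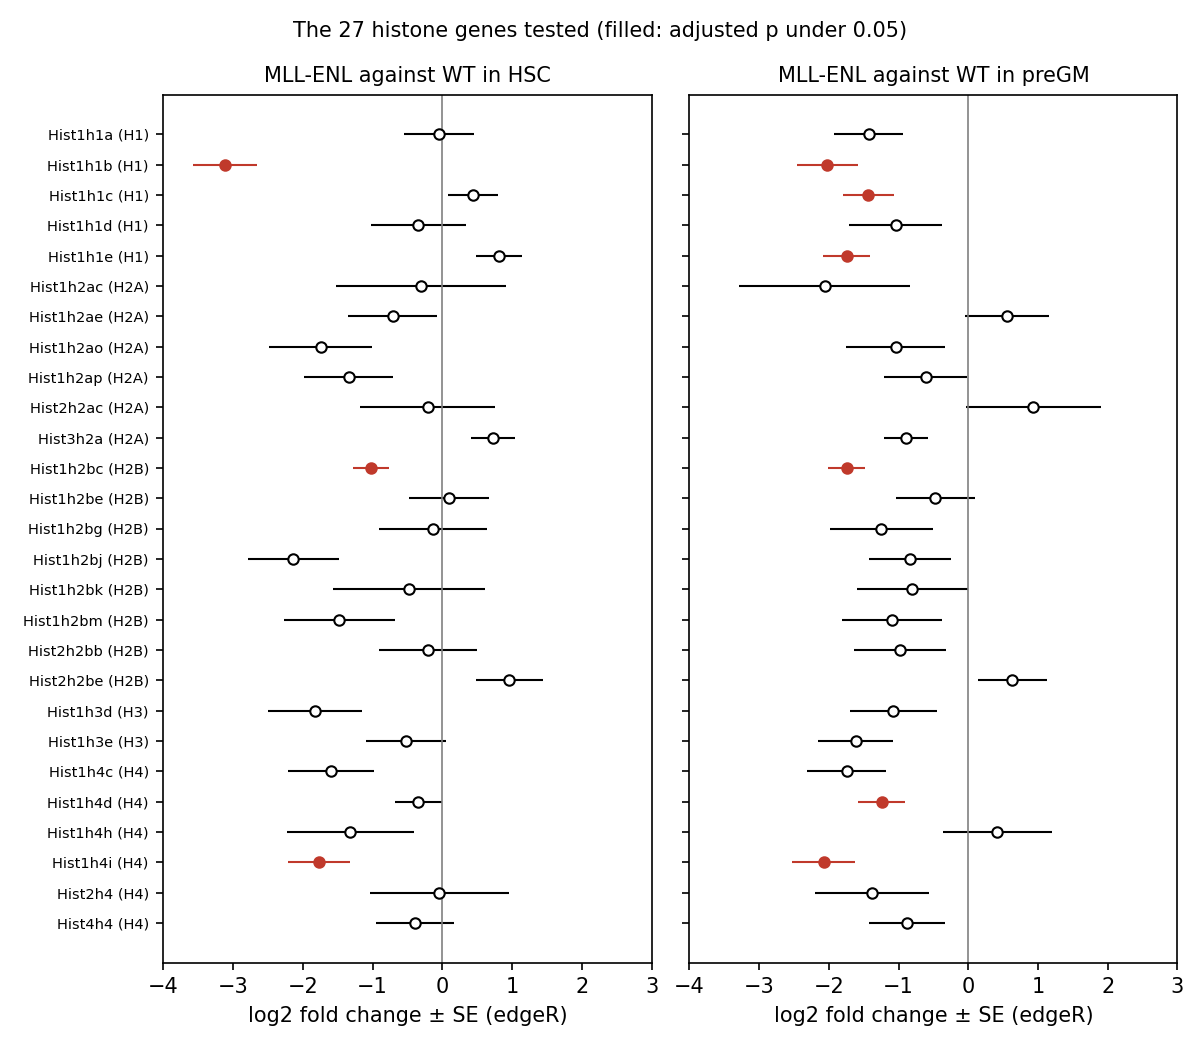
Log2 fold change ± SE of MLL-ENL against WT in HSC (left) and in preGM (right) for the 27 histone genes tested, one row per gene; filled points passed the test. Hist1h1b lies at -3.12 in HSC and -2.02 in preGM, while Hist1h1e lies at 0.81 in HSC and -1.74 in preGM.

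The largest change that passed the test in HSC was in a linker histone. Hist1h1b (chr13:21779883-21780625, minus strand, H1f5 in RefSeq), the most abundant H1 gene of WT cells, fell to 0.115 times the WT level in HSC. It stood at 3.64, 5.81 and 9.83 CPM in MLL-ENL HSC, against 61.9, 42.9 and 62.3 CPM in WT HSC. The groups were far apart (log2 fold change -3.12 ± 0.46 SE, adjusted p = 0.0013), and the call held in 21 of 21 alternatives. In preGM it stood at 19.7, 34.7 and 55.2 CPM with MLL-ENL, against 118, 242 and 85.2 CPM in WT (log2 fold change -2.02 ± 0.44 SE, adjusted p = 0.0097). There the call ended without WT preGM replicate 2, at -1.48 (adjusted p = 0.063), and without MLL-ENL preGM replicate 1, at -1.72 (adjusted p = 0.051); the range over 21 alternatives was 0.00014 to 0.063. The difference between the responses was not called (preGM minus HSC 1.09 ± 0.61 SE on the log2 scale, adjusted p = 0.40). Without both libraries that stood apart it was called, at 1.94 (adjusted p = 0.013).

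Hist1h1e (chr13:23620629-23622558, minus strand, H1f4 in RefSeq), another somatic subtype, had fold changes of opposite sign in the 2 cell types. It stood at 11.6, 16.4 and 14.5 CPM in MLL-ENL HSC, against 7.49, 7.56 and 9.11 CPM in WT HSC. All MLL-ENL HSC libraries were above all WT HSC libraries, although the change did not pass the test (log2 fold change 0.81 ± 0.33 SE, adjusted p = 0.19). With MLL-ENL its level in preGM was 4.91, 4.13 and 2.98 CPM, against 10.7, 21.2 and 8.57 CPM in WT, with no overlap (log2 fold change -1.74 ± 0.33 SE, adjusted p = 0.0041). Its response differed between the cell types (preGM minus HSC -2.56 ± 0.47 SE on the log2 scale, adjusted p = 0.0056), and this held in 20 of 20 alternatives. In edgeR's fit over the 4 groups it was the 1 member of 27 called, a share near that of all genes, of which 3.15% were called, 1.09% with a positive and 2.06% with a negative difference. DESeq2 also called Hist1h1c and Hist3h2a, edgeR without WT HSC replicate 3 also called Hist1h1c, and edgeR without the filter on low counts also called Hist1h1c, Hist3h2ba and Hist1h2br. The preGM response of Hist1h1e held in 21 of 21.

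Hist1h1c (chr13:23738808-23740367, plus strand), a somatic subtype found in most cells, stood at 7.5, 10.2 and 8.49 CPM in MLL-ENL HSC, against 6.43, 3.40 and 9.54 CPM in WT HSC. MLL-ENL preGM held 3.54, 3.09 and 3.12 CPM, against 7.52, 12.6 and 6.38 CPM in WT (log2 fold change -1.43 ± 0.36 SE, adjusted p = 0.025). The preGM libraries did not overlap and the HSC libraries did. The preGM call held in 12 of 21 alternatives and ended without replicate 1 or 2 of WT preGM, or replicate 1, 2 or 3 of MLL-ENL preGM (log2 -1.54 to -1.10, adjusted p 0.054 to 0.12). Its difference between responses missed the threshold (preGM minus HSC -1.88 ± 0.51 SE on the log2 scale, adjusted p = 0.059).

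Hist1h1a (chr13:23763666-23764406, plus strand), a subtype known mainly from thymus, testis and spleen, stood at 5.51, 3.26 and 11.2 CPM in MLL-ENL HSC, against 6.82, 6.84 and 7.14 CPM in WT HSC. MLL-ENL preGM held 4.63, 6.76 and 12.4 CPM, against 15.6, 38.6 and 9.99 CPM in WT, and the groups overlapped (log2 fold change -1.43 ± 0.50 SE, adjusted p = 0.10). Hist1h1d stayed at 0.119 to 1.35 CPM in the 12 libraries and passed no test.

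The mixture of H1 subtypes is given as a description, without a test. As a share of summed H1 RPKM, Hist1h1b made up 14.9, 19.2 and 24.9% in MLL-ENL HSC, against 78.1, 72.6 and 75.0% in WT HSC. Hist1h1e made up 47.1, 53.9 and 36.3% in MLL-ENL HSC, against 9.39, 12.7 and 10.9% in WT HSC, and was the leading subtype in all 3 MLL-ENL HSC libraries. Hist1h1c made up 13.7 ± 3.06% of H1 RPKM in MLL-ENL HSC and 4.02 ± 1.37% in WT HSC (SD, n = 3 each). Hist1h1a made up 20.5 ± 8.93% in MLL-ENL HSC and 9.54 ± 1.71% in WT HSC. In preGM, Hist1h1b led in every library, with 71.3 ± 6.82% with MLL-ENL and 79.4 ± 0.647% in WT (SD, n = 3 each). Shares sum to 100% within a library, so a smaller share of 1 subtype enlarges the others.

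**Figure D4:**
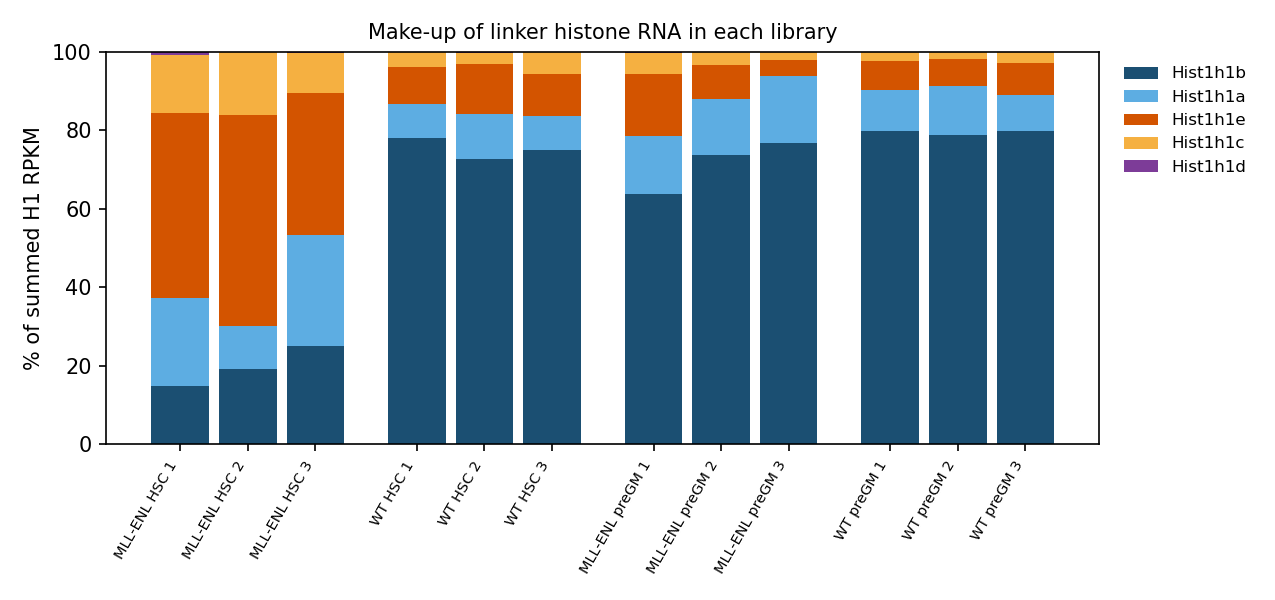
Share of summed H1 RPKM (%, stacked to 100) taken by each H1 subtype in each of the 12 libraries. Hist1h1b takes 14.9, 19.2 and 24.9% in the MLL-ENL HSC libraries and 78.1, 72.6 and 75.0% in the WT HSC libraries.

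With Hist1h1b left out, the other 5 H1 genes summed to 25.8, 30.0 and 34.8 CPM in MLL-ENL HSC, against 21.2, 19.1 and 26.5 CPM in WT HSC. The sign of the H1 class in HSC then turned positive (0.44 ± 0.32 SE, adjusted p = 0.50). The same genes summed to 13.7, 14.4 and 19.0 CPM in MLL-ENL preGM, against 34.8, 73.7 and 26.0 CPM in WT preGM (-1.51 ± 0.32 SE, adjusted p = 0.0092). Without Hist1h1b, the H1 response differed between the cell types (log2 -1.95 ± 0.45 SE, adjusted p = 0.025). Without both libraries that stood apart, an alternative chosen after the data were seen, these values were -0.86 (adjusted p = 0.032) in preGM and -1.30 (adjusted p = 0.0098) for the difference; leaving out 1 of them gave adjusted p from 0.029 to 0.046 over both values.

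Among core histones, H4 counts came mostly from Hist1h4d (chr13:23581598-23582735, plus strand). It held 88.8 ± 1.14% of H4 counts in MLL-ENL HSC and 79.3 ± 7.97% in WT HSC. In preGM it held 88.7 ± 0.850% with MLL-ENL and 86.7 ± 0.345% in WT (SD, n = 3 each). It stood at 18.9, 35.1 and 41.2 CPM in MLL-ENL HSC, against 42.6, 29.9 and 48.5 CPM in WT HSC, with overlap (log2 fold change -0.35 ± 0.33 SE, adjusted p = 0.62). In preGM it stood at 26.3, 46.4 and 51.5 CPM with MLL-ENL, against 81.7, 134 and 78.1 CPM in WT (log2 fold change -1.24 ± 0.34 SE, adjusted p = 0.035). The preGM call held in 11 of 21 alternatives and ended without replicate 1 of WT HSC, replicate 2 of MLL-ENL HSC, replicate 1 or 2 of WT preGM, or replicate 1 of MLL-ENL preGM (log2 -1.36 to -0.95, adjusted p 0.051 to 0.15).

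Hist1h4i (chr13:22040636-22041362, minus strand), whose stem-loop differs from that of Hist1h4d in its loop and flanks, stood at 1.42, 1.95 and 2.79 CPM in MLL-ENL HSC, against 8.10, 8.56 and 4.31 CPM in WT HSC (log2 fold change -1.77 ± 0.45 SE, adjusted p = 0.037). With MLL-ENL its level in preGM was 1.05, 2.99 and 2.59 CPM, against 7.05, 14.0 and 6.83 CPM in WT (log2 fold change -2.08 ± 0.45 SE, adjusted p = 0.0092). The groups overlapped in neither cell type. The HSC call held in 15 of 21 alternatives and ended without replicate 1 or 2 of WT HSC, replicate 1, 2 or 3 of MLL-ENL HSC, or replicate 1 of WT preGM (log2 -2.05 to -1.55, adjusted p 0.053 to 0.15). The preGM call ended without WT preGM replicate 2, at -1.66 (adjusted p = 0.060), within a range of 0.00016 to 0.071. With Hist1h4d left out, the other 12 H4 genes summed to 2.66, 3.94 and 5.20 CPM in MLL-ENL HSC, against 9.55, 12.5 and 8.0 CPM in WT HSC (-1.35 ± 0.35 SE, adjusted p = 0.040).

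The H2B gene with the most counts was Hist1h2bc (chr13:23684199-23692908, plus strand). In the fit over the 4 groups it was called lower with MLL-ENL in both cell types, as were Hist1h1b and Hist1h4i. Other members, Hist1h4d among them, had negative fold changes in both without passing in both. The share of all genes called lower in both is not given here. Hist1h2bc stood at 11.3, 11 and 11.5 CPM in MLL-ENL HSC, against 22, 21.7 and 25.2 CPM in WT HSC (log2 fold change -1.03 ± 0.26 SE, adjusted p = 0.034). MLL-ENL preGM held 2.48, 4.16 and 4.47 CPM, against 11, 15.3 and 10.9 CPM in WT (log2 fold change -1.75 ± 0.27 SE, adjusted p = 0.00068). Libraries of the groups did not overlap in either cell type. The preGM call held in 21 of 21 alternatives. The HSC call held in 13 of 21 and ended without replicate 1, 2 or 3 of WT HSC, replicate 1, 2 or 3 of MLL-ENL HSC, or replicate 1 of WT preGM (log2 -1.06 to -0.94, adjusted p 0.053 to 0.13).

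Most of these reads did not come from the coding exon. The deposited transcript has a coding exon 1 of 423 bases (chr13:23684199-23684621), an intron of 7554 bases and an exon 2 of 313 bases (chr13:23692176-23692488), which lies in the 3′ UTR of the GENCODE M21 transcript. Exon 2 held 83.5, 72.5 and 80.6% of the exon counts in MLL-ENL HSC and 79.9, 79.7 and 84.1% in WT HSC, and 74.2, 78.9 and 72.8% in MLL-ENL preGM and 78.0, 79.6 and 81.2% in WT preGM. The share thus lay between 72.5% and 84.1% in every library. The intron held 1 to 28 counts per library, against 98 to 381 in exon 2.

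Exon 1 stood at 1.87, 3.02 and 2.23 CPM in MLL-ENL HSC, against 4.41, 4.39 and 4.0 CPM in WT HSC, and at 0.640, 0.878 and 1.21 CPM in MLL-ENL preGM, against 2.42, 3.12 and 2.05 CPM in WT preGM. Exon 2 stood at 9.43, 7.96 and 9.26 CPM in MLL-ENL HSC, against 17.6, 17.3 and 21.2 CPM in WT HSC, and at 1.84, 3.28 and 3.26 CPM in MLL-ENL preGM, against 8.60, 12.2 and 8.86 CPM in WT preGM. Both exons were lower in each MLL-ENL library than in each WT library of the same cell type.

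**Figure D5:**
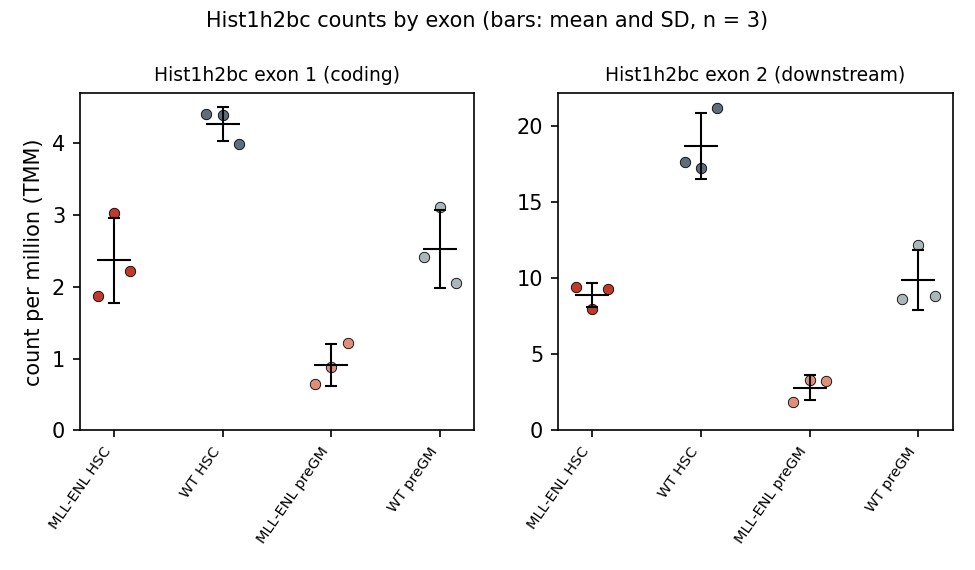
CPM (TMM-normalized counts scaled by library size, vertical axes from 0) of exon 1 (left) and exon 2 (right) of Hist1h2bc in the 12 libraries; points are libraries, bars the mean and SD of 3. In exon 2 the MLL-ENL preGM libraries sit at 1.84, 3.28 and 3.26 and the WT preGM libraries at 8.60, 12.2 and 8.86.

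The other 17 H2B genes summed to 7.37, 10.6 and 8.63 CPM in MLL-ENL HSC, against 6.87, 8.06 and 7.69 CPM in WT HSC, so that the H2B sum without Hist1h2bc had a positive fold change in HSC (0.23 ± 0.26 SE, adjusted p = 0.68). Hist1h2bj (chr13:22043214-22043676) stood at 0.348, 0.557 and 0.0707 CPM in MLL-ENL HSC, against 0.894, 1.27 and 2.15 CPM in WT HSC, without overlap and without passing the test (log2 fold change -2.14 ± 0.65 SE, adjusted p = 0.079). MLL-ENL preGM held 0.677, 1.56 and 1.79 CPM, against 2.0, 3.26 and 1.94 CPM in WT (log2 fold change -0.84 ± 0.58 SE, adjusted p = 0.39). Hist3h2ba, chosen after its values were seen, had 6, 21 and 6 counts in MLL-ENL HSC and 0 in all WT HSC libraries. Its mean of 0.413 ± 0.367 CPM (SD, n = 3) was at least 2.54-fold higher than the 0.163 CPM that 3 counts per WT HSC library would give. This limit rests on 1 library: without MLL-ENL HSC replicate 2 the mean was 0.201 CPM, at least 1.24-fold higher. It did not pass the filter and was not tested.

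No H2A copy passed edgeR's test between MLL-ENL and WT in either cell type, while at an unadjusted p under 0.05 1 was higher and 2 lower in HSC and 0 were higher and 1 lower in preGM. Hist3h2a (chr11:58954685-58956830, plus strand), the most abundant one, shares 35.6% of its exon bases with Trim17, and the deposited counts are not stated to use strand, so reads of the 2 genes cannot be told apart. It stood at 11.8, 6.77 and 8.42 CPM in MLL-ENL HSC, against 6.54, 3.53 and 6.28 CPM in WT HSC, with every MLL-ENL library above every WT library (log2 fold change 0.73 ± 0.32 SE, adjusted p = 0.23). In preGM it stood at 3.22, 4.45 and 4.06 CPM with MLL-ENL, against 7.02, 8.47 and 6.38 CPM in WT, with the opposite order (log2 fold change -0.90 ± 0.31 SE, adjusted p = 0.10). The difference between these responses missed the threshold (preGM minus HSC -1.63 ± 0.45 SE on the log2 scale, adjusted p = 0.061).

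Hist1h2ae (chr13:23570517-23571220, minus strand) showed how much 1 library can weigh. It stood at 9.03, 1.37 and 1.38 CPM in MLL-ENL preGM, against 2.87, 3.03 and 2.19 CPM in WT preGM, so that MLL-ENL preGM replicate 1 alone was high and the 2 others lay below WT (log2 fold change 0.55 ± 0.60 SE, adjusted p = 0.60). In HSC it stood at 0.633, 0.995 and 1.31 CPM with MLL-ENL, against 1.73, 1.72 and 1.35 CPM in WT (log2 fold change -0.71 ± 0.64 SE, adjusted p = 0.59). The coding sequences of Hist1h2ao and Hist1h2ap are identical. Their sum was 0.601, 0.677 and 0.990 CPM in MLL-ENL HSC, against 1.45, 2.26 and 2.83 CPM in WT HSC, without overlap and not tested as a sum. With Hist3h2a left out, the H2A class in HSC turned from a positive to a negative fold change (-0.88 ± 0.46 SE, adjusted p = 0.33).

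H3 counts came mainly from Hist1h3e and Hist1h3d, both at low levels. Hist1h3e (chr13:23561534-23562369, minus strand) stood at 0.753, 1.14 and 1.44 CPM in MLL-ENL preGM, against 2.0, 5.59 and 2.65 CPM in WT preGM, without overlap (log2 fold change -1.62 ± 0.54 SE, adjusted p = 0.089). In HSC it stood at 0.918, 0.637 and 0.318 CPM with MLL-ENL, against 0.726, 0.589 and 1.42 CPM in WT, with overlap (log2 fold change -0.52 ± 0.58 SE, adjusted p = 0.67). Hist1h3d (chr13:23575763-23577011, plus strand) stood at 0.570, 0.358 and 0.106 CPM in MLL-ENL HSC, against 1.62, 0.408 and 1.72 CPM in WT HSC (log2 fold change -1.83 ± 0.67 SE, adjusted p = 0.15). With MLL-ENL its level in preGM was 0.866, 0.813 and 0.718 CPM, against 0.956, 2.19 and 1.94 CPM in WT (log2 fold change -1.07 ± 0.62 SE, adjusted p = 0.31). Neither gene passed the test in either cell type.

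Cell types were compared within each genotype. The groups are shared with the comparisons above, so the values are set side by side only. In WT, 8 of 27 members passed the test between preGM and HSC, 6 higher and 2 lower, where 38.5% of all genes did, 18.4% higher and 20.1% lower. With MLL-ENL, 9 passed, 4 higher and 5 lower, where 41.5% of all genes did, 20.4% higher and 21.1% lower. The members' shares were 29.6% in WT and 33.3% with MLL-ENL. The WT count was 2 without WT preGM replicate 2, 3 without WT HSC replicate 2, and 5 without replicate 1 of WT HSC or replicate 1 or 3 of WT preGM. These directions lean on TMM scaling, since scaling by library size alone moved the median of all genes by -0.70 in WT and -0.56 with MLL-ENL on the log2 scale. With it, 2 members were called in WT, both lower, and the MLL-ENL against WT medians moved by 0.19 in HSC and 0.32 in preGM.

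In WT cells, H1, H3 and H4 sums were higher in preGM than in HSC. The H1 value was log2 1.31 ± 0.37 SE (adjusted p = 0.010), that of H3 1.25 ± 0.43 SE (adjusted p = 0.033) and that of H4 1.17 ± 0.33 SE (adjusted p = 0.010). With library size alone none of the 3 passed, at 0.55, 0.52 and 0.44. Without WT preGM replicate 2, H1 was 0.77 (adjusted p = 0.061), within a range of 0.0017 to 0.19 over 22 alternatives. The H3 call ended without replicate 1 or 2 of WT HSC, or replicate 2 or 3 of WT preGM (log2 0.86 to 1.34, adjusted p 0.057 to 0.14). H2B was log2 -0.42 ± 0.23 SE (adjusted p = 0.16) and H2A 0.39 ± 0.31 SE (adjusted p = 0.34), which was -0.31 with library size alone. With library size alone the H2B value passed, at -1.14 (adjusted p = 0.00041); its range was 0.00041 to 0.39.

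With MLL-ENL, the H2B sum passed the test and was lower in preGM (log2 fold change -0.97 ± 0.23 SE, adjusted p = 0.0033). The call ended without Hist1h2bc (-0.44 ± 0.26 SE, adjusted p = 0.20). H1 was log2 0.51 ± 0.36 SE (adjusted p = 0.27) and H4 0.39 ± 0.32 SE (adjusted p = 0.35), and with library size alone these turned to -0.10 and -0.23. H3 was 1.10 ± 0.44 SE (adjusted p = 0.056) and H2A -0.17 ± 0.30 SE (adjusted p = 0.67). Without their most abundant copies, H1 turned to -0.94 ± 0.32 SE, adjusted p = 0.028, H2A turned to 1.20 ± 0.46 SE, adjusted p = 0.045, and H3 passed (1.40 ± 0.49 SE, adjusted p = 0.031). Without both libraries that stood apart, H1 passed at 0.76 (adjusted p = 0.010), H4 at 0.64 (adjusted p = 0.036) and H2A at -0.62 (adjusted p = 0.043). Within H1 the subtypes went separate ways. Hist1h1b was higher in MLL-ENL preGM than in MLL-ENL HSC (log2 fold change 2.51 ± 0.45 SE, adjusted p = 0.00048), while Hist1h1e (log2 fold change -1.82 ± 0.33 SE, adjusted p = 0.00055) and Hist1h1c (log2 fold change -1.42 ± 0.36 SE, adjusted p = 0.0056) were lower. All 3 held in 21 of 21 alternatives.

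Hist1h1b was also higher in WT preGM than in WT HSC (log2 fold change 1.41 ± 0.43 SE, adjusted p = 0.017), as was Hist1h1a (log2 fold change 1.62 ± 0.51 SE, adjusted p = 0.019). The Hist1h1b call ended without replicate 2 of WT HSC, or replicate 2 of WT preGM (log2 0.88 to 1.26, adjusted p 0.070 to 0.11), and that of Hist1h1a without replicate 1 or 2 of WT HSC, or replicate 2 of WT preGM (log2 0.89 to 1.61, adjusted p 0.054 to 0.16). Hist1h2bc was lower in preGM than in HSC both in WT (log2 fold change -0.89 ± 0.26 SE, adjusted p = 0.012) and with MLL-ENL (log2 fold change -1.61 ± 0.26 SE, adjusted p = 0.00022). Hist2h2be stood at 2.01, 1.46 and 0.801 CPM in MLL-ENL preGM, against 4.24, 4.78 and 5.13 CPM in MLL-ENL HSC, and at 0.926, 1.12 and 0.740 CPM in WT preGM, against 3.52, 2.90 and 0.800 CPM in WT HSC. It was lower in preGM too, with log2 -1.39 ± 0.51 SE (adjusted p = 0.041) in WT and -1.72 ± 0.49 SE (adjusted p = 0.011) with MLL-ENL. The Hist1h2bc call in WT ended without replicate 3 of WT HSC, or replicate 1 or 3 of WT preGM (log2 -0.81 to -0.80, adjusted p 0.050 to 0.060). That of Hist2h2be ended in WT without replicate 1 or 2 of WT HSC, replicate 1, 2 or 3 of MLL-ENL HSC, replicate 1, 2 or 3 of WT preGM, or replicate 2 of MLL-ENL preGM (log2 -1.53 to -1.02, adjusted p 0.051 to 0.17), and with MLL-ENL without replicate 3 of MLL-ENL preGM (log2 -1.43, adjusted p 0.056).

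Hist1h2bk, counted above among the members called higher in both genotypes, stood at 0.245, 0.650 and 0.580 CPM in MLL-ENL preGM, against 0, 0.119 and 0.106 CPM in MLL-ENL HSC, and at 0.597, 1.12 and 0.854 CPM in WT preGM, against 0.112, 0.181 and 0 CPM in WT HSC. It passed the filter on low counts through the preGM libraries alone, so it had to differ, and no fold change is given. In WT, Hist1h3e (log2 fold change 1.91 ± 0.56 SE, adjusted p = 0.014), Hist1h4d (log2 fold change 1.28 ± 0.34 SE, adjusted p = 0.0072) and Hist1h4c (log2 fold change 1.5 ± 0.57 SE, adjusted p = 0.048) were higher in preGM. The call of Hist1h3e ended without replicate 2 of WT HSC, or replicate 2 of WT preGM (log2 1.37 to 1.67, adjusted p 0.054 to 0.077). Hist1h4c stood at 1.40, 2.84 and 1.48 CPM in WT preGM, against 0.559, 0.589 and 0.861 CPM in WT HSC, and its call ended without replicate 1, 2 or 3 of WT HSC, replicate 3 of MLL-ENL HSC, replicate 1, 2 or 3 of WT preGM, or replicate 2 or 3 of MLL-ENL preGM (log2 1.11 to 1.74, adjusted p 0.051 to 0.17). With MLL-ENL, Hist1h2bj (log2 fold change 2.04 ± 0.64 SE, adjusted p = 0.019) was higher and Hist3h2a (log2 fold change -1.21 ± 0.32 SE, adjusted p = 0.0067) lower in preGM. The call of Hist1h2bj ended without replicate 1 or 3 of MLL-ENL HSC, or replicate 3 of MLL-ENL preGM (log2 1.57 to 2.1, adjusted p 0.050 to 0.070). Hist1h2ae was called higher (log2 fold change 2.01 ± 0.63 SE, adjusted p = 0.018), but without MLL-ENL preGM replicate 1 it was 0.50 (adjusted p = 0.37), within a range of 0.0052 to 0.40, and the call also ended without MLL-ENL HSC replicate 1 or 2.

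Genes that act on histone RNA or in the same cell cycle phase were set beside these values. Of 31 S phase and replication genes, edgeR called 1 (Cdt1) lower and 0 higher with MLL-ENL in HSC, where 0.949% of all genes were lower and 3.19% higher, with a median log2 fold change of -0.54 against 0.02 over all genes. DESeq2 called 4 lower and 0 higher. In the HSC comparison edgeR called 4 lower without WT preGM replicate 2, 9 lower without MLL-ENL preGM replicate 1 and 23 lower without both, where 11.1% of all genes were lower, and 0 higher each time. Cdt1, a licensing factor of replication origins, had log2 fold change -0.86 ± 0.21 SE, adjusted p = 0.033; the call held in 8 of 21 alternatives (adjusted p 0.00068 to 0.18) and ended without replicate 1, 2 or 3 of WT HSC, replicate 1, 2 or 3 of MLL-ENL HSC, replicate 1 of WT preGM, or replicate 3 of MLL-ENL preGM. In preGM edgeR called 1 higher and 1 lower, where 3.71% of all genes were higher and 3.08% lower, and DESeq2 called 2 higher and 1 lower. The median was 0.31 against 0.08 over all genes, and 0.18 against 0.04 without both libraries that stood apart. The called genes were Mcm7, a helicase subunit (log2 fold change 0.95 ± 0.27 SE, adjusted p = 0.048), and E2f2, a cell cycle transcription factor (log2 fold change -1.33 ± 0.28 SE, adjusted p = 0.0070). The Mcm7 call held in 7 of 21 alternatives (adjusted p 0.0044 to 0.24) and ended without replicate 1, 2 or 3 of WT HSC, replicate 1, 2 or 3 of MLL-ENL HSC, replicate 1 or 2 of WT preGM, or replicate 1 or 3 of MLL-ENL preGM. The E2f2 call held in 19 of 21 alternatives (adjusted p 2.8e-05 to 0.11). At an unadjusted p under 0.05, 0 of the 31 were higher and 11 lower in HSC. In preGM 10 were higher and 1 lower, which without both libraries was 8 higher and 1 lower. Shares of all genes at an unadjusted p, in DESeq2 and in the fits without 1 library are not given here. Those counts of S phase genes therefore have no background to be read against. Summed over the 31 genes, the level was 2683 to 2779 CPM in MLL-ENL HSC, against 3812 to 4133 CPM in WT HSC, and 5826 to 7778 CPM in MLL-ENL preGM, against 4159 to 5564 CPM in WT preGM. In preGM the highest value was that of MLL-ENL preGM replicate 1 and the lowest that of WT preGM replicate 2; without them the sums were 5826 and 5895 CPM with MLL-ENL, against 5142 and 5564 CPM in WT. The S phase sum of each MLL-ENL library thus lay below each WT library in HSC, as the H1 sum did, and above each WT library in preGM, where H1, H2B and H4 fell, the gap in preGM being small without the 2 libraries. Its part in the results was not tested. Pcna, the replication clamp, stood at 212, 408 and 351 CPM in MLL-ENL preGM, against 334, 221 and 347 CPM in WT preGM (log2 fold change 0.11 ± 0.28 SE, adjusted p = 0.84), and its HSC value was -0.66 ± 0.28 SE (adjusted p = 0.21).

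The 13 genes of histone transcription and 3′ processing had 1 call between MLL-ENL and WT, which was Casp8ap2, a component of the histone locus body, lower in HSC (log2 fold change -0.82 ± 0.22 SE, adjusted p = 0.048). DESeq2 called 2 lower in HSC and 1 higher in preGM, and without both libraries that stood apart edgeR called 4 lower in HSC and 0 in preGM. For every list here, edgeR's fit over the 4 groups called 0.949% of all genes lower and 3.19% higher in HSC. In preGM it called 3.08% lower and 3.71% higher. In the HSC fit without both libraries the share lower was far larger, as given above for the S phase genes. Shares in DESeq2 and at an unadjusted p are not given. The Casp8ap2 call held in 6 of 21 alternatives (adjusted p 0.00066 to 0.23) and ended without replicate 1, 2 or 3 of WT HSC, replicate 1, 2 or 3 of MLL-ENL HSC, replicate 1 or 3 of WT preGM, or replicate 3 of MLL-ENL preGM. Slbp stood at 151, 152 and 153 CPM in MLL-ENL HSC, against 196, 174 and 150.3 CPM in WT HSC (log2 fold change -0.19 ± 0.29 SE, adjusted p = 0.77), and at 203, 225 and 214 CPM in MLL-ENL preGM, against 216, 90.7 and 227 CPM in WT preGM (log2 fold change 0.27 ± 0.29 SE, adjusted p = 0.61). WT preGM replicate 2, with the most H1 and H4 RNA, had the least Slbp RNA of all libraries. Npat had log2 values of -0.15 ± 0.30 SE in HSC and 0.27 ± 0.30 SE in preGM (adjusted p = 0.83 and 0.61). Of 8 histone mRNA decay genes, edgeR called 0 in HSC (0 at an unadjusted p under 0.05 and 0 by DESeq2), and 0 in preGM (2 higher and 2 lower at an unadjusted p under 0.05, 2 lower by DESeq2). Of 19 chaperone and assembly genes edgeR called 0 in HSC, where 1 was higher and 5 lower at an unadjusted p under 0.05 and DESeq2 called 3 lower; without both libraries that stood apart edgeR called 8 lower and 1 higher. In preGM 1 was higher, Ipo4, an importer of histones (log2 fold change 1.16 ± 0.33 SE, adjusted p = 0.048). It held in 6 of 21 alternatives (adjusted p 0.018 to 0.24) and ended without replicate 2 or 3 of WT HSC, replicate 1, 2 or 3 of MLL-ENL HSC, replicate 1, 2 or 3 of WT preGM, or replicate 1 of MLL-ENL preGM.

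Of 14 histone variant genes outside the clusters, most of which are made throughout the cell cycle, 11 were tested. In HSC edgeR called 2 lower with MLL-ENL and 0 higher, where 0.949% of all genes were lower and 3.19% higher, and DESeq2 called 2 lower and 1 higher. In preGM edgeR called 1 lower and 0 higher, where 3.08% of all genes were lower and 3.71% higher, and DESeq2 called 2 lower and 0 higher. Without both libraries that stood apart, edgeR called 3 lower and 2 higher in HSC and 2 lower and 1 higher in preGM. Far more of all genes were lower in that HSC fit too, as given above for the S phase genes, and its preGM shares are not given. H2afy, which encodes macroH2A, stood at 356, 338 and 341 CPM in MLL-ENL HSC, against 822, 769.8 and 869 CPM in WT HSC (log2 fold change -1.25 ± 0.25 SE, adjusted p = 0.011). In preGM it stood at 513, 693 and 704 CPM with MLL-ENL, against 457, 606 and 426 CPM in WT (log2 fold change 0.36 ± 0.25 SE, adjusted p = 0.39). The HSC call held in 18 of 21 alternatives (adjusted p 1.7e-07 to 0.067) and ended without replicate 1, 2 or 3 of MLL-ENL HSC. Its response differed between the cell types (preGM minus HSC 1.61 ± 0.36 SE on the log2 scale, adjusted p = 0.019), which held in 13 of 20 alternatives (adjusted p 8.7e-07 to 0.071) and ended without replicate 3 of WT HSC, replicate 1, 2 or 3 of MLL-ENL HSC, replicate 1 or 3 of WT preGM, or replicate 3 of MLL-ENL preGM. H2afy2, the other macroH2A gene, was lower in HSC (log2 fold change -1.91 ± 0.50 SE, adjusted p = 0.043), at 1.23, 0.836 and 1.27 CPM in MLL-ENL HSC, against 1.40, 5.12 and 6.15 CPM in WT HSC. It held in 8 of 21 alternatives (adjusted p 0.0045 to 0.17) and ended without replicate 2 or 3 of WT HSC, replicate 1, 2 or 3 of MLL-ENL HSC, replicate 1 or 3 of WT preGM, or replicate 2 or 3 of MLL-ENL preGM.

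H1f0, the linker histone of differentiated cells outside the clusters, had, like Hist1h1e, a positive fold change in HSC and a negative one in preGM. It stood at 47.2, 43.9 and 45.8 CPM in MLL-ENL HSC, against 28.3, 24.9 and 37.2 CPM in WT HSC (log2 fold change 0.60 ± 0.26 SE, adjusted p = 0.23), and at 6.19, 10.6 and 8.23 CPM in MLL-ENL preGM, against 13.9, 24.1 and 16.1 CPM in WT preGM (log2 fold change -1.11 ± 0.27 SE, adjusted p = 0.019). The HSC groups and the preGM groups each did not overlap, and its response differed between the cell types (preGM minus HSC -1.71 ± 0.38 SE on the log2 scale, adjusted p = 0.018), which held in 19 of 20 alternatives (adjusted p 0.00082 to 0.054) and ended without replicate 2 of WT HSC. The preGM call held in 14 of 21 alternatives (adjusted p 0.0016 to 0.090) and ended without replicate 2 of WT preGM, or replicate 1 or 3 of MLL-ENL preGM. H2afx, the variant phosphorylated at DNA breaks, had log2 values of -0.30 ± 0.36 SE in HSC and -0.05 ± 0.36 SE in preGM, with adjusted p = 0.70 and 0.95.

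Summed markers of several blood lineages differed between some of these groups. In preGM, 6 mast cell, basophil and eosinophil genes (Fcer1a, Cpa3, Mcpt8, Prss34, Ms4a2, Epx) summed to 184 to 281 CPM with MLL-ENL, against 1424 to 2386 CPM in WT. A set of 8 granulocyte and monocyte genes summed to 8107 to 13874 CPM with MLL-ENL, against 20903 to 22628 CPM in WT. That set includes Elane and Mpo, which were also counted above as preGM genes, so it does not mark other cells alone. In HSC, 6 megakaryocyte genes summed to 276 to 311 CPM with MLL-ENL, against 644 to 752 CPM in WT, and 6 erythroid genes to 25.5 to 31.3 CPM, against 86.3 to 111 CPM. In preGM the 6 megakaryocyte genes summed to 31.3 to 41.6 CPM with MLL-ENL and 24.6 to 94.2 CPM in WT, and the 6 erythroid genes to 32.8 to 58.8 CPM with MLL-ENL and 57.0 to 64.7 CPM in WT. None of these genes was at 0 in all libraries of a group, except 1 mast cell, basophil and eosinophil gene in MLL-ENL HSC. Their part in the results was not tested.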

How the data were processed

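RNA of 12 libraries, 3 in each of 4 groups, was analysed from exon tables. The tools named per the submitters' processing notes are HTSeq, edgeR, Bowtie2 2.1.0 and TopHat2 2.0.8. The genome build, read length and strand setting are not given in the sources used here. The deposited exon counts per library and the deposited RPKM values (scaled by feature length and library size) come from the authors, per the file headers. Of 93615 transcripts, 95.8% matched a GENCODE M21 ID and 85.9% of those had exons identical to GRCm38, so positions were read as that build. Deposited exon counts were summed per gene over the non-overlapping exons that covered most of its bases, giving 37564 genes. An ID whose deposited position lay outside its gene was placed by position, which moved 4 histone IDs. Genes that failed edgeR's filter on low counts were left out, leaving 15702, and one model of 4 groups was fitted (R 4.3.3, edgeR 4.0.16, TMM, biological coefficient of variation 0.321). Gene RPKM used these counts and the library size that the authors' deposited RPKM implies, and limma 3.58.1 tested log2(RPKM + 0.1) and log2(RPKM + 1). Other alternatives were DESeq2 1.42.0, library size alone, no filter, the longest transcript, only the groups compared, a replicate block, class sums without the top copy and each library left out. Values in every library are given for the 2 members of each class with the highest mean RPKM and for the 5 called members with the largest change in each comparison. Members and lists were chosen with earlier results of these data known. Protein sequences were not used here, and copies were compared by coding sequence. In simulated HSC data over 15702 genes, 65% of 100 genes changed 4-fold and 13% of 100 changed 2-fold were recovered, and 6 of 84 calls were false. The simulation gave each gene the same spread in all libraries, so none stood apart as 2 did in the real data.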

Additional observations from a re-analysis of the deposited data

Results flagged for a closer look

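The response of Hist1h1e to MLL-ENL differed between the cell types by a test of the difference itself (preGM minus HSC -2.56 ± 0.47 SE on the log2 scale, edgeR adjusted p = 0.0056). It stood at 4.91, 4.13 and 2.98 CPM in MLL-ENL preGM, against 10.7, 21.2 and 8.57 CPM in WT preGM, and at 11.6, 16.4 and 14.5 CPM in MLL-ENL HSC, against 7.49, 7.56 and 9.11 CPM in WT HSC. It was lower with MLL-ENL in 3 of 3 preGM libraries than in every WT preGM library, and higher in 3 of 3 HSC libraries than in every WT HSC library.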

How the results depend on the processing

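Each setting is followed by the results that it moved, comparison by comparison. Results are log2 values of class sums or counts of members called, to be set against the values in the report, and the cause of a change was not tested. In limma on log2(RPKM + 0.1), between MLL-ENL and WT in HSC, H2A was -0.17 with the sign turned and 5 members were called. H4 was -0.98 and no longer passed between MLL-ENL and WT in preGM. H2A was 0.074 with the sign turned and H3 was 0.090 with the sign turned for preGM minus HSC responses. H1 was 0.56 and no longer passed, H2A was -0.30 with the sign turned, H2B was -0.87 and passed, H3 was 0.57 and no longer passed, H4 was 0.52 and no longer passed and 4 members were called between preGM and HSC in WT. H4 was -0.084 with the sign turned between preGM and HSC with MLL-ENL. In limma on log2(RPKM + 1), between MLL-ENL and WT in HSC, H2A was -0.15 with the sign turned and 5 members were called. H4 was -0.97 and no longer passed between MLL-ENL and WT in preGM. H2A was 0.088 with the sign turned for preGM minus HSC responses. H1 was 0.56 and no longer passed, H2A was -0.28 with the sign turned, H2B was -0.84 and passed, H3 was 0.46 and no longer passed, H4 was 0.52 and no longer passed and 5 members were called between preGM and HSC in WT. H4 was -0.083 with the sign turned between preGM and HSC with MLL-ENL. Without WT preGM replicate 2 and MLL-ENL preGM replicate 1 together, between MLL-ENL and WT in HSC, H1 was -1.09 and passed, H2B was -0.60 and passed and 5 members were called. H4 was -0.74 and no longer passed and 2 members were called between MLL-ENL and WT in preGM. H3 was 0.30 with the sign turned and 2 members were called for preGM minus HSC responses. H2B was -0.61 and passed, H3 was 0.86 and no longer passed and 4 members were called between preGM and HSC in WT. H1 was 0.76 and passed, H2A was -0.62 and passed and H4 was 0.64 and passed between preGM and HSC with MLL-ENL. In DESeq2, between MLL-ENL and WT in HSC, H1 was -1.10 and passed. H3 was -1.35 and passed and 10 members were called between MLL-ENL and WT in preGM. 3 members were called for preGM minus HSC responses. H3 was 1.12 and passed between preGM and HSC with MLL-ENL. Without the filter on low counts, for preGM minus HSC responses, 4 members were called. With library size alone, between MLL-ENL and WT in preGM, H4 was -0.97 and no longer passed. H3 was 0.0055 with the sign turned for preGM minus HSC responses. H1 was 0.55 and no longer passed, H2A was -0.31 with the sign turned, H2B was -1.14 and passed, H3 was 0.52 and no longer passed, H4 was 0.44 and no longer passed and 2 members were called between preGM and HSC in WT. H1 was -0.10 with the sign turned and H4 was -0.23 with the sign turned between preGM and HSC with MLL-ENL. With only the groups compared, between MLL-ENL and WT in HSC, H1 was -1.07 and passed and H2B was -0.58 and passed. H4 was -1.26 and no longer passed between MLL-ENL and WT in preGM. H3 was 1.14 and no longer passed between preGM and HSC in WT. With class sums taken without their most abundant copy, between MLL-ENL and WT in HSC, H1 was 0.44 with the sign turned, H2A was -0.88 with the sign turned, H2B was 0.23 with the sign turned and H4 was -1.35 and passed. H2B was -0.66 and no longer passed between MLL-ENL and WT in preGM. H1 was -1.95 and passed, H2A was 0.84 with the sign turned and H3 was 0.73 with the sign turned for preGM minus HSC responses. H2B was 0.46 with the sign turned, H3 was 0.66 and no longer passed and H4 was 0.59 and no longer passed between preGM and HSC in WT. H1 was -0.94 with the sign turned and passed, H2A was 1.20 with the sign turned and passed, H2B was -0.44 and no longer passed and H3 was 1.40 and passed between preGM and HSC with MLL-ENL. Leaving out each library in turn, between MLL-ENL and WT in HSC the sums were H1 -1.25 to -0.95, H2A 0.014 to 0.29, H2B -0.65 to -0.53, H3 -1.5 to -0.87, H4 -0.73 to -0.23, with 1 to 3 members called. Between MLL-ENL and WT in preGM the sums were H1 -2.23 to -1.34, H2A -0.87 to -0.19, H2B -1.25 to -0.95, H3 -1.55 to -0.92, H4 -1.46 to -0.98, with 2 to 6 members called. For preGM minus HSC responses the sums were H1 -1.14 to -0.25, H2A -1.02 to -0.34, H2B -0.65 to -0.36, H3 -0.44 to 0.24, H4 -1.04 to -0.49, with 1 to 2 members called. Between preGM and HSC in WT the sums were H1 0.77 to 1.60, H2A 0.26 to 0.50, H2B -0.61 to -0.32, H3 0.86 to 1.51, H4 0.88 to 1.32, with 2 to 8 members called. Between preGM and HSC with MLL-ENL the sums were H1 0.18 to 0.76, H2A -0.62 to 0.062, H2B -1.07 to -0.83, H3 0.81 to 1.44, H4 0.13 to 0.64, with 6 to 10 members called. With the replicate number as a block, the H3 sum between preGM and HSC in WT no longer passed, at 1.22 (adjusted p = 0.059), within a range of 0.011 to 0.32 over its alternatives; no other class sum crossed the threshold. The labels do not say whether the numbers pair samples. Correlations of deviations from group means were -0.104 to 0.10 between same-numbered libraries and -0.136 to 0.137 between differently numbered ones. With 3 libraries per group, such correlations cannot settle whether samples were paired. Taking the longest transcript of each gene moved none of these results across the threshold. Low counts limit the 40 members not tested, which include most H2A, H2B, H3 and H4 copies. Reads shared between copies limit most core histone genes.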
